A study of Mus musculus with 25 samples.

Results

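The nuclear genes of oxidative phosphorylation encode most subunits of the respiratory chain and the ATP synthase in the inner mitochondrial membrane, together with many of the factors that assemble them. They were taken as the protein-coding nuclear genes of the RefSeq annotation whose symbol begins with Nduf, Uqcr, Atp5 or Cox and a digit, or is Sdha, Sdhb, Sdhc, Sdhd, Cyc1 or Cycs. This gave 107 genes, of which 106 have a curated transcript, among 21000 protein-coding nuclear genes with such a transcript. The remaining gene, Ndufb4b, has only a predicted transcript and was left out.

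The study examines Spin1, a reader of histone H3 trimethylated at lysine 4 (H3K4me3), in mouse skeletal muscle (SkM) development. Its chromatin immunoprecipitation and sequencing (ChIP-seq) used primary myoblasts, the cultured precursors of muscle fibres, from limb muscle of 10-day-old C57BL/6 mice, enriched by preplating, in which fibroblasts attach first. The same chromatin was precipitated with a Spin1 antibody or with an H3K4me3 antibody, which one label shortens to anti-H3K4me, and input DNA served as the control. There was 1 library per antibody and no replicate, so no difference between the libraries or between genes could be set against an error between samples.

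Complexes I and II feed electrons from NADH and succinate into the chain, complex III passes them on to cytochrome c, and complex IV reduces oxygen with them. Complexes I, III and IV pump protons, and complex V, the ATP synthase, makes ATP from the resulting gradient. Complex IV has several subunits with 2 or more gene copies, and in adult heart and SkM the isoforms Cox6a2, Cox7a1 and Cox8b take the place of the ubiquitous Cox6a1, Cox7a2 and Cox8a. Among regulators, NRF1, the ETS factor GABP, the estrogen-related receptors (ERR) and the coactivator Ppargc1a are known for driving these genes.

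The files list the position of each peak and the score assigned by the peak caller, the negative log10 of the p-value over the input multiplied by 10. Read counts are not given there, so the depth behind a peak is unknown, and a promoter listed without a peak may hold signal below detection. Scores pile up at 3100, which was reached by 30.9% of the list for Spin1 (17106 peaks) and by 45.2% of that for H3K4me3 (30763 peaks), and peaks listed at 3100 have no order. A few scores lie above it, up to 3233 for Spin1 and 3228 for H3K4me3, and a peak at or above 3100 is said here to be at the ceiling. All 7 myoblast markers examined, including Myod1 and Pax7, carried both peaks. Spin1 peaks were found at 1 of 4 fibroblast markers (Pdgfra) and at 0 of 3 endothelial, 0 of 3 macrophage, 0 of 2 adipocyte, 0 of 2 neuronal and 0 of 1 hepatocyte markers. H3K4me3 peaks were found at 3, 2, 1, 1, 2 and 0 of these, in the same order. The peaks record occupancy in undifferentiated myoblasts and do not measure expression.

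The promoter was the 1 kb on either side of the transcription start site (TSS) of any curated transcript, and 1 bp of overlap with a peak sufficed for occupancy. Spin1 peaks were present at 98 of the 106 genes, or 92.5% (95% Wilson interval 85.8 to 96.1%, which covers counting error only), against 56.7% of all protein-coding genes. H3K4me3 peaks were present at 103 genes or 97.2% (92.0 to 99.0%), against 68.0%. Both peaks were found at 98 genes, against 56.6% of all protein-coding genes. Thus each of these genes with Spin1 also had H3K4me3, while 5 genes had H3K4me3 only and 3 had neither.

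Of the 8 genes without Spin1, 7 belonged to complex IV. Spin1 occupied 37 of 38 genes of complex I, 4 of 4 of complex II, 9 of 9 of complex III, cytochrome c (Cycs), 17 of 17 of complex V and 18 of 18 assembly factors, but 12 of 19 genes of complex IV. For complex IV the interval ran from 41.0 to 80.9%, and that for complex I from 86.5 to 99.5%. H3K4me3 occupied 16 of 19 genes of complex IV and every gene of the other classes. Among the 8 genes without Spin1 were Cox6a2, Cox7a1, Cox6b2 and Ndufa4l2 with H3K4me3 only, and Cox4i2, Cox7b2 and Cox8c with neither peak, all isoforms of complex IV subunits with a restricted expression. The exception was Ndufb4c, a copy of the complex I subunit gene Ndufb4, with H3K4me3 only. When the restricted isoforms were left out, 11 of 11 genes of complex IV had both peaks.

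**Figure D1:**
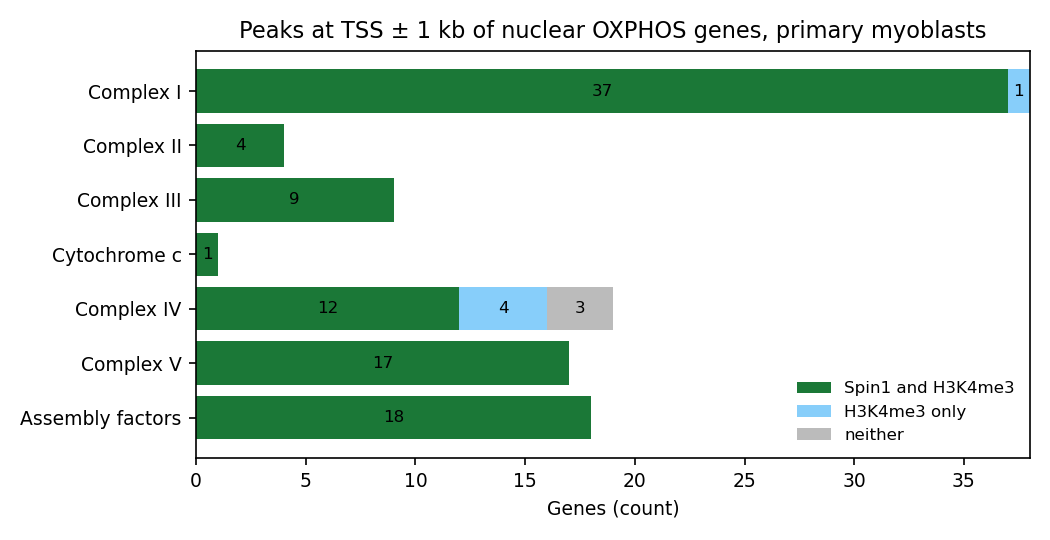
Number of nuclear genes of oxidative phosphorylation with both peaks, H3K4me3 only or neither at TSS±1 kb, by complex (horizontal axis, count of genes). Genes without Spin1 lie in complex IV, with 4 genes with H3K4me3 only and 3 with neither, and 1 lies in complex I.

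The muscle isoforms of complex IV were compared with their ubiquitous partners. At Cox6a2, the heart and muscle isoform of subunit VIa, the H3K4me3 peak was 867 bp wide with a score of 214.6, and the nearest Spin1 peak was 18071 bp from the TSS. Its ubiquitous partner Cox6a1 had a Spin1 peak of 2445 bp and an H3K4me3 peak of 3703 bp, both with a score of 3100. At Cox7a1, the muscle isoform of subunit VIIa, an H3K4me3 peak of 1005 bp with a score of 455.6 was found, and the nearest Spin1 peak was 9067 bp away. The partner Cox7a2 had a Spin1 peak of 2305 bp with a score of 2362 and an H3K4me3 peak of 3811 bp with a score of 3100.

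Cox8b, the muscle isoform of subunit VIII, differed from the other muscle isoforms in that it carried Spin1. Its Spin1 peak was 855 bp wide with a score of 242.9, the narrowest and the lowest-scoring of the 98, and 4.50% of all protein-coding genes with Spin1 had a narrower one. The H3K4me3 peak of Cox8b was 2000 bp wide with a score of 2403. For the partner Cox8a, which is used in most tissues, a Spin1 peak of 2205 bp and an H3K4me3 peak of 5235 bp were listed, both with a score of 3100. Each muscle isoform thus had a narrower and lower-scoring H3K4me3 peak than its partner, and Spin1 was seen at 1 of 3 muscle isoforms and at 3 of 3 partners. With 3 genes a group, the intervals of these shares overlap (6.15 to 79.2% and 43.9 to 100%).

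**Figure D2:**
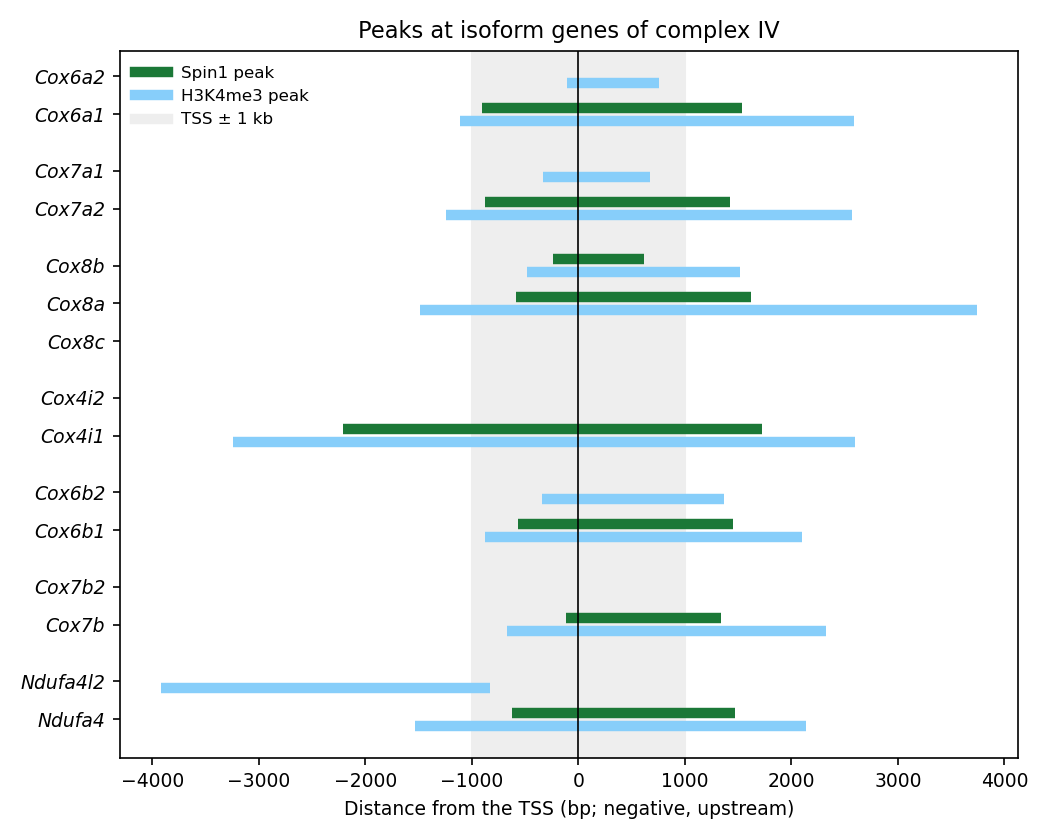
Extent of the Spin1 peak (green) and of the H3K4me3 peak (blue) around the TSS of complex IV isoform genes (horizontal axis, distance in bp, negative values upstream, grey band TSS±1 kb), with restricted isoforms and their ubiquitous partners grouped together. Spin1 peaks are drawn at the 7 ubiquitous genes and at Cox8b, where the peak is 855 bp wide.

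The other restricted isoforms had no Spin1 peak in 5 of 5 cases. Cox6b2, a testis isoform of subunit VIb, had an H3K4me3 peak of 1706 bp with a score of 269.9, and its nearest Spin1 peak was 10987 bp away. Ndufa4l2, a hypoxia-induced relative of the complex IV subunit gene Ndufa4, had an H3K4me3 peak of 3089 bp with a score of 3100, but the near edge of this peak lay 833 bp upstream of the TSS. Ndufa4l2 was the only one of the 106 genes whose occupancy changed with a window of TSS±0.5 kb, in which it had no peak, and no occupancy changed with TSS±2 kb. No peak reached the promoters of Cox4i2 (a lung isoform of subunit IV), Cox8c or Cox7b2 (testis isoforms). For Cox4i2 the nearest H3K4me3 peak was 12029 bp away, for Cox8c 19616 bp, and for Cox7b2 108442 bp.

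In contrast, the partners Cox4i1, Cox6b1, Cox7b and Ndufa4 all carried both peaks. Cox4i1, the ubiquitous isoform of subunit IV, had a Spin1 peak of 3933 bp and an H3K4me3 peak of 5840 bp. At Cox6b1 the widths were 2019 and 2975 bp, and at Ndufa4 they were 2101 and 3671 bp. Cox7b was the lowest-scoring of these partners for Spin1, with 1457 bp and a score of 665.5, while its H3K4me3 peak of 2989 bp reached 3100.

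The sequence before the TSS was read to see how the promoters of the isoform pairs differ in composition. The runs below cover 250 bases before to 20 after the TSS of GRCm38 from RefSeq, on the strand of the gene, and capitals mark motif matches. Cox7a1 and Cox8b are shown for the muscle isoforms, and Cox7a2, Cox8a and Cox6a1 for the ubiquitous ones. The promoter of the muscle isoform Cox6a2 was not among those that could be compared, so its composition was not examined. Cox7a1 lies at chr7:30183921-30184190 (plus strand), and the minus-strand runs are Cox8b at chr7:140900427-140900696, Cox7a2 at chr9:79759834-79760103, Cox8a at chr19:7217597-7217866 and Cox6a1 at chr5:115348939-115349208.
Cox7a1: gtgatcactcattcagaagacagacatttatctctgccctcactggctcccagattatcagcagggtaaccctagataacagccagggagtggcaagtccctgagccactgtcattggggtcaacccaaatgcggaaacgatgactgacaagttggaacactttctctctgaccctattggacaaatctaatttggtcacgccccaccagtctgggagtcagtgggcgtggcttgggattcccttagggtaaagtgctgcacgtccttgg
Cox8b: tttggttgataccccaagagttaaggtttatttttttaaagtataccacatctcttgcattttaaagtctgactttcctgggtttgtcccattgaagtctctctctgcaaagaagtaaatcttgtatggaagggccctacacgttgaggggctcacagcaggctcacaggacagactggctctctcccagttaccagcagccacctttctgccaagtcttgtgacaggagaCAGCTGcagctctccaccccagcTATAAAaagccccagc
Cox7a2: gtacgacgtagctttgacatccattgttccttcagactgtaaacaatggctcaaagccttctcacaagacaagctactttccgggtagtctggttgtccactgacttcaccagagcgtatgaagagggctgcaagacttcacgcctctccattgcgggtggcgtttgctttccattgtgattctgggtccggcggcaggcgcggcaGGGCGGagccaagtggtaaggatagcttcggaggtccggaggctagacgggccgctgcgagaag
Cox8a: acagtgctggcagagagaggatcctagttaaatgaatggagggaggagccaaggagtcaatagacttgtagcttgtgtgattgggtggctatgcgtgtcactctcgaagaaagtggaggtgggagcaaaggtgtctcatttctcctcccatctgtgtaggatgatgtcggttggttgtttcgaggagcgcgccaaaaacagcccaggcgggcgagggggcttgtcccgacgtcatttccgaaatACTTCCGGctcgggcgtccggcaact
Cox6a1: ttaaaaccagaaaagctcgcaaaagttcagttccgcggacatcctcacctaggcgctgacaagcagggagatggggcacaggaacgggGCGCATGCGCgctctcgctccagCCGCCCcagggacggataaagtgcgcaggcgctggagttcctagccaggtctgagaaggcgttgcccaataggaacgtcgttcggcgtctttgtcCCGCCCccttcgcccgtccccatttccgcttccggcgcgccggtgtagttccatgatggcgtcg

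The run of Cox8b holds 1 CpG and that of Cox7a1 holds 5, whereas there are 17 in Cox7a2, 15 in Cox8a and 28 in Cox6a1. In Cox8b the capitals mark an E-box (CAGCTG) at position -19, with the TSS base as position 0, and the letters of a TATA box (TATAAA). These letters begin at position 4, downstream of the annotated TSS. In Cox7a2 they mark a GC box (GGGCGG), in Cox8a an ETS/GABP motif (CCGGAAGT, here on the other strand), and in Cox6a1 2 GC boxes and an NRF1 core (GCATGCGC) that matches on both strands. None of the motifs searched was found in the run of Cox7a1, which says only that these letters are not in it.

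Over 250 bases before to 50 after the TSS, 85 of the 106 genes and 16853 of all 21000 protein-coding genes could be compared. The median GC content was 58.7% against 57.0% for all protein-coding genes, and the median CpG ratio (observed over expected from base composition) was 0.829 against 0.613. A CpG ratio of at least 0.6, taken here as CpG-rich, was found for 71 of 85 genes or 83.5%, against 51.1%. All 71 CpG-rich genes had both peaks, where among all CpG-rich protein-coding genes 89.4% had Spin1 and 98.3% had H3K4me3. However, Cox6a2, Cox4i2, Cox8c, Ndufa4l2 and Ndufb4c, which lack Spin1, were not among the 85 genes. Their CpG ratio was not examined, so most members without Spin1 are missing from this comparison.

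The CpG-poor promoters of this class were nevertheless mostly occupied. Spin1 was present at 11 and H3K4me3 at 13 of 14 genes below a ratio of 0.6, whereas among all CpG-poor protein-coding genes the shares were 23.6% and 35.5%. These groups were not matched for CpG ratio. Apart from Cox8b, Cox7a1, Cox7b and Cox6b2, the 14 genes had ratios from 0.482 (Ndufc2) to 0.596 (Ndufb11), not far below 0.6. The ratios of all protein-coding genes reached down to 0. Those without Spin1 were Cox7a1 with a ratio of 0.333, Cox6b2 with 0.432 and Cox7b2 with 0.564. Among the genes with both peaks, Cox8b had the lowest ratio, 0.115, followed by Cox7b with 0.368. Occupancy was thus lower for CpG-poor than for CpG-rich genes. Within the 14 CpG-poor genes the lowest ratios were mixed, with Spin1 at Cox8b and Cox7b but not at Cox7a1 and Cox6b2. Above these ratios only Cox7b2 lacked Spin1. The part of composition in occupancy was not tested.

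**Figure D3:**
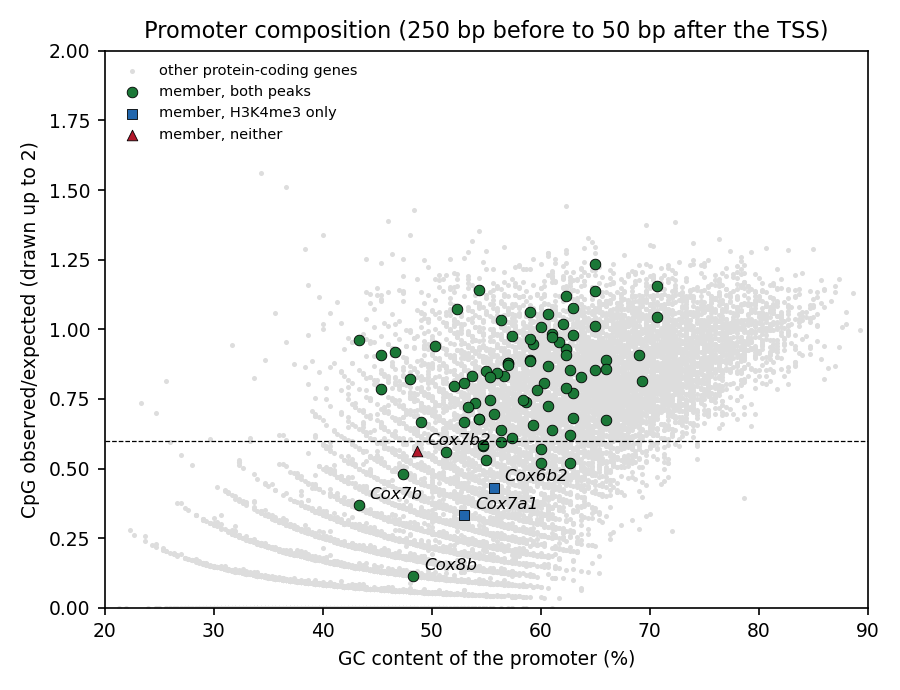
GC content (horizontal axis, %) and CpG observed over expected (vertical axis) of promoters (250 bases before to 50 after the TSS), with the 85 nuclear genes of oxidative phosphorylation coloured by their peaks and other protein-coding genes in grey. The dashed line marks 0.6, below which Cox8b, Cox7a1, Cox6b2 and Cox7b2 lie together with 10 other genes.

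Motifs of known regulators were then searched in the same window on both strands, except for the TATA box on the strand of the gene. The NRF1 core was found in 13 of 85 promoters or 15.3% (9.16 to 24.4%), against 3.85% of all protein-coding promoters, and the ETS/GABP motif in 10.6% (5.67 to 18.9%), against 5.61%. An ERR motif (TCAAGGTCA) was found at Atp5g3 and Sdhd, or 2.35% (0.648 to 8.18%), against 0.326%. GC boxes were found in 47.1% against 49.2%, E-boxes in 7.06% against 15.1%, TATA boxes in 3.53% against 8.90%, and the MEF2 motif (CTAAAAATA) in 0 against 0.403%. The interval lay above the share of all promoters for the NRF1 core, the ETS/GABP and the ERR motif, the ETS/GABP motif only just, and it included that share for the GC box, the TATA box and the MEF2 motif. For the E-box it ran from 3.28 to 14.6%, below the share of all promoters. With 500 bases before to 100 after the TSS, however, it ran from 11.9 to 28.4% and included the share of all promoters, 26.2%. The NRF1 core, the ETS/GABP motif and the GC box each contain a CpG, and the promoters compared were not matched for CpG ratio. TATA box letters were counted at any position in the window. Among the 85 genes they began at position -166 (Ndufa3), -99 (Ndufs7) and 4 (Cox8b).

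The NRF1 core was spread over the chain, with Ndufa6, Ndufa8 and Ndufa11 of complex I, Sdhb of complex II, Uqcrc1 and Uqcr11 of complex III, Cycs, Cox6a1 of complex IV, Atp5g2, Atp5k and Atp5l of complex V, and the assembly factors Ndufaf4 and Ndufaf5. Its letters read almost the same on the other strand, so that matches on both strands can overlap, and each promoter was counted once. The YY1 motif (AAGATGGC) was found in 15.3% of the promoters against 3.36%. However, 10 of its 13 matches began at or after the TSS. In 8 of the 13 matching promoters (61.5%) the ATG in the motif was the annotated start codon. Over all protein-coding genes this held for a smaller share, 169 of 566 matching promoters (29.9%). In the 8 promoters of this class the YY1 letters cannot be told apart from the sequence around the start codon. In the other 5 the match was not on one, and at Atp5j, Atp5pb and Cox20 it began before the TSS.

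3 promoters with such matches are shown, on the minus strand and over the same bases. Cycs, the electron carrier cytochrome c, lies at chr6:50566550-50566819 and has the NRF1 core at position -60. Uqcr11, a small subunit of complex III, lies at chr10:80406802-80407071, with an ETS/GABP motif at position -66 and the NRF1 core at position -4. Atp5g3, which encodes a c-ring subunit of the ATP synthase, lies at chr2:73911307-73911576, with an ERR motif on the other strand at position -52.
Cycs: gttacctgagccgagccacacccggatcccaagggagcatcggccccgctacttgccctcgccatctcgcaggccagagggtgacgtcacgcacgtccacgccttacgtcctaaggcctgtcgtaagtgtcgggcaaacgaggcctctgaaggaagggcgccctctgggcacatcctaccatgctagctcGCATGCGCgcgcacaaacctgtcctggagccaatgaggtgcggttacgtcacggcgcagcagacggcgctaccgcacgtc
Uqcr11: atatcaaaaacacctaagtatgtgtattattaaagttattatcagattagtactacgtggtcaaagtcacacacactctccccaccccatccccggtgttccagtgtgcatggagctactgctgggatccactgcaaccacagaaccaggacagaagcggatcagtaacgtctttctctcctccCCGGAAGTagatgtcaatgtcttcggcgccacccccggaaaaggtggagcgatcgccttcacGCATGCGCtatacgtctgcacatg
Atp5g3: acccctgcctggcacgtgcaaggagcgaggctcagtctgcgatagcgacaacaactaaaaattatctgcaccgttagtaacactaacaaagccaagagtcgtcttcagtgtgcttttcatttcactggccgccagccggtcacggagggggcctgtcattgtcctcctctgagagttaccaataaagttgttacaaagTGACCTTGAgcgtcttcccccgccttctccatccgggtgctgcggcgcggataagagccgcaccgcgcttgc

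**Figure D4:**
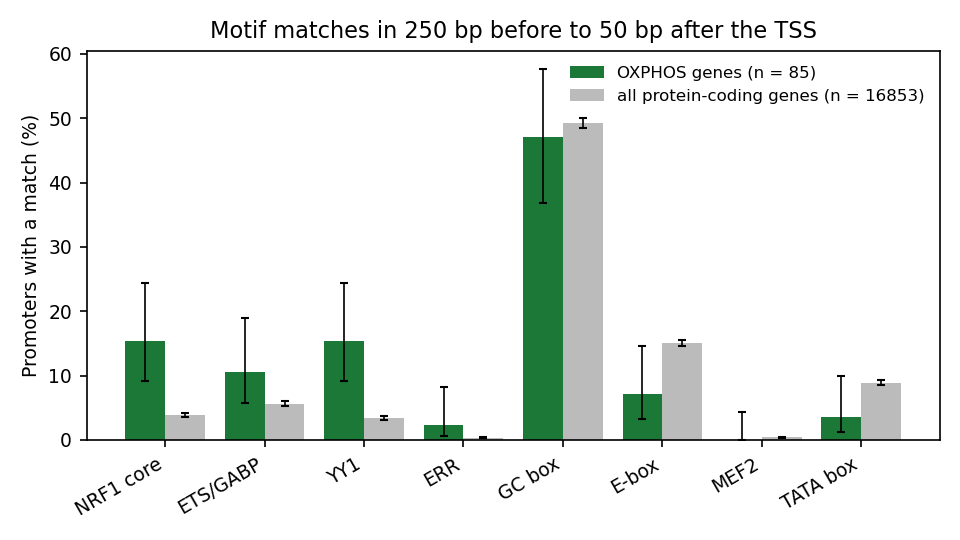
Share of promoters with a motif match (vertical axis, %) for 85 nuclear genes of oxidative phosphorylation (green) and 16853 protein-coding genes (grey), with 95% Wilson intervals as error bars. The NRF1 core is found in 15.3% against 3.85% of the promoters, and the GC box in 47.1% against 49.2%.

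Peak size was examined next. At these promoters the median Spin1 peak was 2300 bp wide (range 855 to 4875 bp), against 2295 bp for all protein-coding genes with Spin1, and the median H3K4me3 peak 3575 bp (range 461 to 29360 bp), against 3247 bp. A Spin1 score at the ceiling was found for 64 of 98 genes or 65.3%, against 48.9%, and an H3K4me3 score at the ceiling for 98 of 103 or 95.1%, against 89.7%. The 5 genes with a lower H3K4me3 score were Cox6a2, Cox6b2, Cox7a1 and Cox8b of complex IV and Ndufb4c, with 1322. Spin1 peaks were thus of ordinary width here, and their scores were more often at the ceiling than over all genes.

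By complex, the median width of the Spin1 peaks was 2122 bp for complex I, 2445 bp for complex II, 2644 bp for complex III, 2245 bp for complex IV, 2511 bp for complex V and 2282 bp for the assembly factors. For H3K4me3 the medians were 3462, 3866, 3501, 2982, 4746 and 3508 bp in the same order. All 9 Spin1 peaks of complex III were at the ceiling, compared with 21 of 37 for complex I. The ranges overlapped between all of the complexes.

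In complex I, Ndufs1, an iron-sulfur subunit of the NADH-oxidizing arm, had a Spin1 peak of 4089 bp and an H3K4me3 peak of 6657 bp. Ndufv1, which binds NADH and flavin, had a Spin1 peak of 1775 bp with a score of 1558 and an H3K4me3 peak of 3002 bp. Both genes belong to the same functional module, and the Spin1 peak was wider at Ndufs1, which shares its promoter with Eef1b2. Ndufb4c had the narrowest H3K4me3 peak of all, 461 bp, and its nearest Spin1 peak was 60626 bp away, whereas Ndufb4 carried 2055 bp of Spin1 and 3000 bp of H3K4me3. The sharing of reads between these near copies was not tested.

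The subunits of succinate dehydrogenase, complex II, were occupied alike. Sdha, the flavoprotein, and Sdhb, the iron-sulfur protein, had Spin1 peaks of 2886 and 2004 bp and H3K4me3 peaks of 4157 and 3575 bp. The membrane anchors Sdhc and Sdhd had Spin1 peaks of 1890 and 2956 bp and H3K4me3 peaks of 3314 and 4643 bp. Only Sdhc was below the Spin1 ceiling in this complex, with a score of 2528.

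In complex III the core proteins Uqcrc1 and Uqcrc2 had Spin1 peaks of 1917 and 2644 bp and H3K4me3 peaks of 2530 and 3705 bp. Uqcrfs1, the Rieske iron-sulfur protein, had 2382 and 3499 bp, and Cyc1, cytochrome c1, had 2000 and 3501 bp. Cycs, which carries the electrons on to complex IV, had 2733 and 4318 bp. Each of these Spin1 and H3K4me3 peaks reached a score of 3100.

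In complex V the catalytic head is built from the alpha and beta subunits, whose genes Atp5a1 and Atp5b had Spin1 peaks of 3362 and 3356 bp and H3K4me3 peaks of 4746 and 5825 bp. Atp5d, the delta subunit of the central stalk, stood apart with an H3K4me3 peak of 29360 bp that ran 27746 bp downstream of the TSS and held the TSSs of Cirbp and Midn. The Spin1 signal of Atp5d was listed as 2 peaks, the wider being 1613 bp. For Atp5d the width of Spin1 was 0.0549 of that of H3K4me3, whereas the median ratio was 0.657 over the class and 0.650 over all protein-coding genes.

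The widest Spin1 peaks were those of Ndufaf3 with 4875 bp, a complex I assembly factor, Uqcrh with 4485 bp, the hinge protein of complex III, and Atp5g2 with 4195 bp, a c-ring subunit. After Cox8b, the narrowest were those of Ndufs4 with 1235 bp and Ndufb7 with 1447 bp, both accessory subunits of complex I. For H3K4me3, Atp5d was followed by Ndufb10 with 7504 bp and Ndufs1, and the narrowest were Ndufb4c, Cox6a2 and Cox7a1. The peak of Ndufb10 also held the TSSs of Rps2 and Rnf151, and the Spin1 peak of Ndufaf3 held that of Dalrd3.

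**Figure D5:**
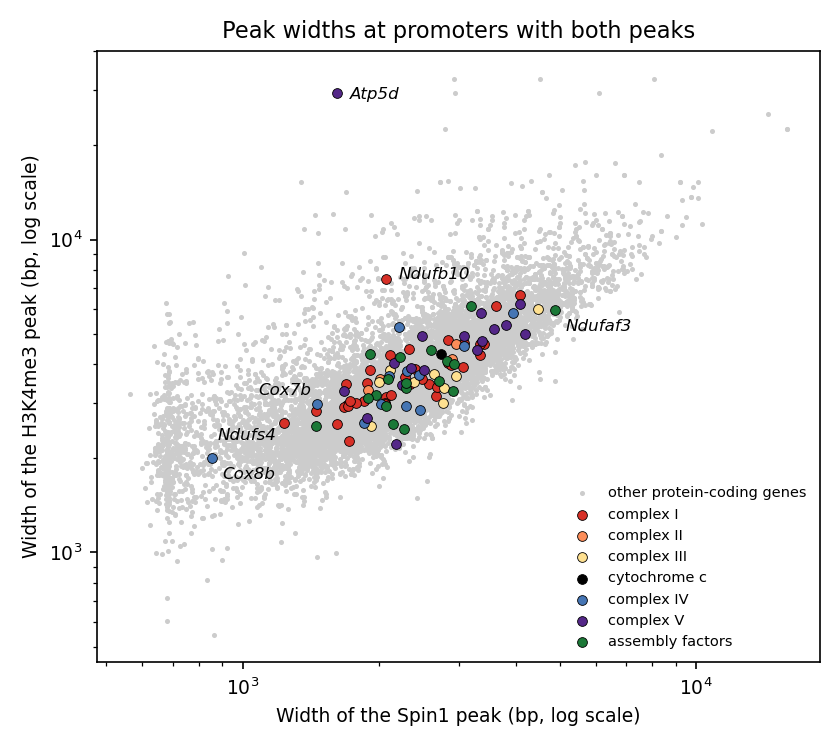
Width of the Spin1 peak (horizontal axis, bp, log scale) against that of the H3K4me3 peak (vertical axis, bp, log scale) at promoters with both, for 98 nuclear genes of oxidative phosphorylation coloured by complex and other protein-coding genes in grey. Cox8b lies at the narrow end with 855 and 2000 bp, and Atp5d lies far above the others with 29360 bp of H3K4me3.

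Widths of Spin1 and H3K4me3 went together over the 98 genes with both (Spearman's rho 0.706, Pearson's r of log widths 0.506), and over 11893 protein-coding genes (0.798 and 0.762). These are descriptions across genes that share the chromatin, the input and the peak caller. The Spin1 peak covered the TSS at 98 of 98 genes, against 93.3% of all protein-coding genes with Spin1. The H3K4me3 peak did so at 102 of 103, all but Ndufa4l2, against 94.9% of those with H3K4me3. From the TSS, Spin1 reached a median of 876.5 bp upstream and 1443 bp downstream, against 771 and 1405 bp over all protein-coding genes. H3K4me3 reached 1243 and 2220 bp, against 1052 and 2012 bp. H3K4me3 thus extended past Spin1 by a median of 397 bp upstream and 806 bp downstream, against 392 and 742 bp over all protein-coding genes.

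The Spin1 peak lay entirely inside the H3K4me3 peak at 95 of 98 genes or 96.9%, against 91.7%. The exceptions were Atp5e, the epsilon subunit of the ATP synthase, Cox17, a copper chaperone for complex IV, and Ndufb2, an accessory subunit of complex I, where the peaks overlapped without full containment.

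Many of these genes share their promoter with a neighbour. A protein-coding gene on the other strand with its TSS within 1 kb upstream was found for 32 of 106 genes or 30.2%, against 8.80% of all protein-coding genes, at a median distance of 102 bp against 148 bp. All 32 carried both peaks, compared with 66 of the 74 others (89.2%). Over all protein-coding genes, 1756 of 1849 with such a neighbour and 10137 of 19151 without one (52.9%) carried both, so that 32 of 32 is close to the general share. The Spin1 peaks of the 32 had a median width of 2879 bp and those of the others 2133 bp, and over all protein-coding genes these medians were 2834 and 2187 bp. For H3K4me3 the medians were 4307 and 3343 bp, against 4217 and 3104 bp.

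Some of the neighbours are themselves mitochondrial. Sdhd faced Timm8b, an import chaperone, at 52 bp, and Ndufb5 faced Mrpl47, a mitochondrial ribosomal protein gene, at 308 bp. Atp5j, a stalk subunit of the ATP synthase, faced Gabpa, the DNA-binding subunit of GABP, at 102 bp, and a single Spin1 peak of 3584 bp and a single H3K4me3 peak of 5184 bp covered both TSSs. Ndufs1 faced the translation factor gene Eef1b2 at 9 bp and Ndufa7 the ribosomal gene Rps28 at 10 bp. Of the 98 Spin1 peaks, 35 or 35.7% held the TSS of another protein-coding gene, and which of the genes such a peak belongs to cannot be told apart. The same share was not computed over all protein-coding genes, so 35.7% cannot be called particular to this class.

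On the X chromosome lie 3 of the genes, and their Spin1 scores were 665.5 at Cox7b, 892.4 at Ndufa1 and 2598 at Ndufb11. None of them reached the ceiling, which 64 of 95 autosomal genes with Spin1 did (67.4%). Over all protein-coding genes with Spin1, 8.07% on the X chromosome and 50.1% on autosomes were at the ceiling. After Cox8b, Cox7b and Ndufa1 had the lowest Spin1 scores of the 98.

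Related gene lists were examined in the same way. Of 19 regulators of mitochondrial biogenesis, 18 carried both peaks, among them Nrf1, Gabpa, Esrra, Tfam, Ppargc1a with a Spin1 peak of 1948 bp and a score of 1195, and Ppargc1b with 6384 bp and 3100. Esrrb, which encodes the beta member of the ERR family, had H3K4me3 only. All 30 further assembly factors of the chain, such as Surf1 and Sco1 for complex IV, carried both peaks. Thus both peaks were seen at the factors that assemble the complexes in 30 of 30 genes outside and 18 of 18 inside the symbol rule.

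Restricted isoforms of other mitochondrial proteins were mixed. Slc25a4, the heart and muscle ATP/ADP carrier, had a Spin1 peak of 3752 bp and an H3K4me3 peak of 5143 bp, and its ubiquitous relative Slc25a5 had 2036 and 3646 bp. Ckmt2, the sarcomeric mitochondrial creatine kinase, and Cyct, the testis cytochrome c, had neither peak. Ckmt1, the ubiquitous mitochondrial creatine kinase, had an H3K4me3 peak of 1284 bp with a score of 316 and no Spin1. Among the ubiquitous relatives, Slc25a5 and Cycs (the somatic relative of Cyct) carried Spin1, whereas Ckmt1 did not. Slc25a4 thus carried Spin1, as did 1 of the 3 muscle isoforms of complex IV.

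Genes of the mitochondrial ribosome were all occupied by both, 78 of 78, with a median Spin1 width of 2079 bp and 41.0% at the score ceiling. Those of the cytosolic ribosome carried Spin1 in 82 and H3K4me3 in 84 of 91 cases, with a median Spin1 width of 3201 bp and 95.1% at the ceiling. The nuclear genes of oxidative phosphorylation lay between these lists in both measures, with 2300 bp and 65.3%.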

How the data were processed

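Members and lists were chosen with earlier results of these data known. Bowtie2 was used by the authors for mapping to mm10. They called the peaks of each library with MACS 1.4.2 against input and dropped those above 1% false discovery rate. The deposited score equals the negative log10 of the p-value multiplied by 10.

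Peak starts were made 1-based. Genes, TSSs of curated transcripts and RefSeq Select transcripts were taken from RefSeq release 108.20200622 on GRCm38. Complex IV includes Ndufa4 and Ndufa4l2. Where a gene had several peaks, the widest was described. Sequence values used the RefSeq Select TSS and only genes in the RefSeq promoter table. Named were the isoform pairs, members lacking a peak, the 3 widest and 3 narrowest peaks of each mark, a fixed set of catalytic subunits, and members that change with the promoter window. Others were picked after their values were seen. The overlap code was tested on simulated peaks. Python 3.11.15, NumPy 2.4.6, SciPy 1.17.1, pysam 0.24.0 and matplotlib 3.10.9 were used. RNA-seq (22 samples) and input were not analysed here.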

Additional observations from a re-analysis of the deposited data

How the results depend on the processing

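No paired analysis was possible because there was 1 library per antibody. The alternatives were other promoter windows, a minimum score of 100, the upper 50% of each list by score, peak centres, an overlap of at least 500 bp, 1 TSS per gene, subunits only, other peak choices and a longer sequence window. Of 149 values under these alternatives, 143 stayed within 1.5 times the count or inside the interval of the value reported. This is a wide margin, and the values overlap, since counts by complex are parts of the counts over all members. The 143 are therefore not independent checks. With the upper 50% of each list, the muscle isoforms had 0 Spin1 and 1 H3K4me3 peaks, since those of Cox8b (Spin1), Cox6a2 and Cox7a1 score lower. With 500 bases before to 100 after the TSS, the median GC content was 55.5%, and the motif shares were 24.7% for YY1, 61.2% for the GC box and 18.8% for the E-box, against 5.57%, 55.3% and 26.2% of all promoters. A longer window holds more places for a match by construction.

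Members with Spin1 numbered 94 to 98 of 106 (88.7 to 92.5%) over the windows and peak filters, against 42.8 to 57.2% of all protein-coding genes. These Spin1 values were lowest with the upper 50% of each list. Members with H3K4me3 numbered 93 to 103 (87.7 to 97.2%), against 56.2 to 68.7%, and these values were lowest with peak centres. The unknown depth limits these counts.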

Other observations

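Mouse chromosomes hold 20 annotated pseudogenes with symbols of this gene class. With the annotated gene start taken as the TSS, Spin1 was found at 1 of them, Atp5l2-ps. H3K4me3 was found at 4, namely Atp5l2-ps, Atp5k-ps4, Cox5b-ps and Ndufab1-ps. The shares over all pseudogenes were not computed, and whether these peaks belong to the promoter of a neighbouring gene was not tested. The multi-mapping of reads between such copies and their parent genes was not tested.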
